A study of Mus musculus with 16 samples.

Results

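The 36 collagen genes of a mouse liver RNA sequencing table are described here by class. They were taken as the protein-coding rows, of 23258 in all, whose gene name is Col, a type number, the letter a and a chain number. By general knowledge of the family, 9 of them encode chains of fibrillar collagens, 6 the chains of basement membrane collagen (type IV), and 21 belong to other classes. Livers came from C57BL/6 mice labelled as wild type or as carrying a liver-specific knockout of the microRNA miR-33, fed chow or a high-fat diet (HFD). The 4 groups were wild type on chow (3 livers), knockout on chow (4), wild type on HFD (4) and knockout on HFD (5). The name of the deposited table carries Alb-Cre, the usual name for Cre recombinase under the albumin promoter, which acts in hepatocytes. The labels do not describe the mouse line or say whether wild-type mice carried Cre, and they do not give the age and sex of the mice, the make of the diets or how long they were fed. They also do not say whether the chow and HFD livers were collected together, so diet and any difference in collection cannot be told apart. Each library is taken as a separate liver, and p-values measure the spread between these livers.

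Collagens are proteins whose chains wind into a triple helix. Types I, III and V assemble into the banded fibrils that give tissue its strength and that make up much of a scar. Type IV forms the sheet-like network of basement membranes. Type VI forms beaded filaments, and types XII, XIV and XVI attach to the surface of fibrils. Types XV and XVIII carry sugar side chains and lie at basement membranes. In liver, stellate cells and portal fibroblasts are known as the main makers of fibrillar collagen, while hepatocytes are known to make type XVIII.

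Library totals ran from 15888436 to 29469645 estimated counts, and a ribosomal RNA gene took from 0.637% to 14.6% of a library. The third wild-type liver on chow and the first knockout liver on HFD stood apart from their groups in a principal component analysis of all genes. The table has no row for miR-33 itself, so the genotype labels could not be checked on the deleted gene. Hepatocyte markers were the highest of the marker lists, with summed levels of 65912 to 105297 CPM (counts per 1000000, scaled by TMM) in the 16 libraries.

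Of the 36 genes, 30 had enough counts to be tested: all 9 fibrillar, all 6 basement membrane and 15 of the 21 others. The 6 that were not tested were Col7a1 (anchoring fibrils), Col9a3, Col10a1, Col17a1, Col25a1 and Col28a1, whose highest value in any library ran from 3.61 to 13 estimated counts. Family members without a row, such as Col2a1 and Col11a1 of cartilage, are not analysed here.

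Levels between genes were compared as CPM per kilobase of annotated exon. Col18a1, the type XVIII chain from which the fragment endostatin is cut, had the highest level of the family in every group. Its level was 68.5 ± 4.84 CPM per kilobase in wild type on chow (SD, n = 3), 70.3 ± 4.64 in knockout on chow (n = 4), 52.5 ± 5.10 in wild type on HFD (n = 4) and 52.2 ± 1.53 in knockout on HFD (n = 5). On chow, wild type, Col5a3 came next at 6.25 ± 2.44, followed by Col14a1 at 2.28 ± 0.332, Col4a1 at 2.16 ± 0.423, Col4a2 at 2.12 ± 0.132 and Col6a1 at 1.64 ± 0.0436 CPM per kilobase. Col14a1, Col4a1 and Col4a2 did not differ beyond their spread. Col1a1, which encodes the α1 chain of type I collagen, had rank 13 there, at 0.529 ± 0.146. On HFD the order was different. Col3a1 moved from rank 8 to rank 2 in both genotypes, reaching 11.4 ± 2.77 CPM per kilobase in wild type, and Col1a1 reached rank 3 in wild type, at 8.86 ± 2.46, and rank 4 in knockout. Col3a1, Col1a1, Col4a1 and Col14a1 had overlapping ranges in wild type on HFD. These levels and ranks depend on the length used. Annotated exons covered 12426 bases for Col1a2, 9816 for Col3a1 and 6563 for Col1a1. Their longest coding transcripts had 5348, 5564 and 5930 bases.

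Of the 30 tested collagen genes, 14 were higher on HFD than on chow in both genotypes, with the largest wild-type changes in Col1a1, Col3a1 and Col8a1, while Col18a1 was lower. Among the 30 tested in wild type, 17 rose, 2 fell and 11 did not pass, with a median log2 fold change of 1.06. Over all 16830 genes tested, 15.2% rose and 14.2% fell, and the median was -0.02. In knockout liver, 14 rose and 2 fell, with a median of 0.92, against 17.4% and 16.2% of all genes and a median of -0.01. Calls are from edgeR's quasi-likelihood test with Benjamini-Hochberg adjustment over all genes, at an adjusted p under 0.05. Overlap between diets is given below as a description of single genes. The share of all genes without such overlap was not computed. The same 14 genes rose in both genotypes: Col1a1, Col1a2, Col3a1, Col5a1, Col5a2, Col27a1, Col4a1, Col4a2, Col6a1, Col6a2, Col6a3, Col8a1, Col14a1 and Col16a1. Col4a5, Col6a5 and Col12a1 passed as higher in wild type and did not pass in knockout; the difference between genotypes did not pass for any of them (adjusted p from 0.793 to 0.845, edgeR). Col18a1 fell in both. Without the 2 livers that stood apart, 15 rose and 1 fell in wild type, and 15 rose and 3 fell in knockout. Since the RNA came from whole liver, more cells of a type and more RNA per cell cannot be told apart. When libraries were scaled to total counts without the ribosomal RNA gene, in place of TMM, the median of all genes shifted to 0.20 in wild type and 0.19 in knockout. The split over all genes then became 4654 higher and 872 lower in wild type, against 2564 and 2382, and 5222 and 1202 in knockout, against 2922 and 2728. Of the collagen genes, 17 then rose and 0 fell in wild type.

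**Figure D1:**
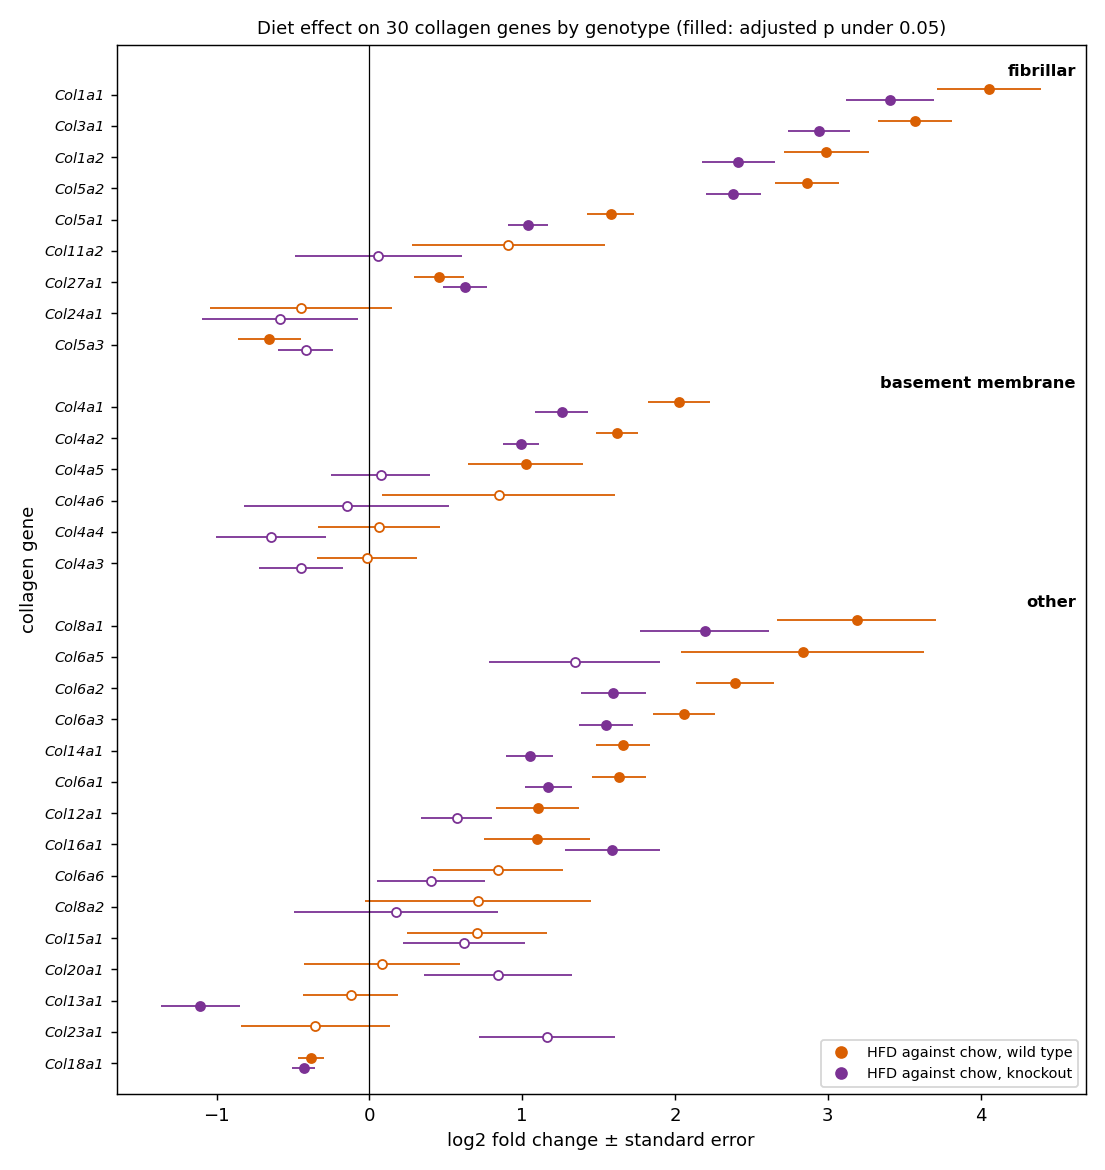
Log2 fold change on HFD against chow (horizontal axis) for the 30 tested collagen genes (vertical axis), in wild type (orange) and knockout (purple), with bars of 1 standard error and filled points for an adjusted p under 0.05. Col1a1 lies farthest right at 4.06 in wild type and 3.40 in knockout, and Col18a1 is left of 0 in both.

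Among the fibrillar genes, 6 of 9 rose and 1 fell in wild type, with a median log2 fold change of 1.58, and 6 rose and 0 fell in knockout, with a median of 1.04. Col1a1 (chr11:94936224-94953042, mm10) had 3.90, 4.13 and 2.37 CPM in wild type on chow, 4.08, 3.01, 3.05 and 5.26 in knockout on chow, 38.8, 57.5, 58 and 78.3 in wild type on HFD and 24.9, 38.7, 37.4, 57.4 and 47 in knockout on HFD. Every HFD liver was above every chow liver, and the genotypes overlapped on each diet. The log2 fold change was 4.06 ± 0.34 in wild type (SE, adjusted p = 1.86e-06) and 3.40 ± 0.29 in knockout (adjusted p = 1.37e-06). Col1a2 (chr6:4504814-4541544), the partner chain of type I, had 7.96, 8.18 and 5.02 CPM in wild type and 9.59, 8.29, 6.07 and 7.89 in knockout on chow. On HFD it had 37, 53.6, 60.8 and 73.7 in wild type and 29, 39.3, 38.2, 56.6 and 50.3 in knockout. The diets did not overlap for Col1a2, and its log2 fold changes were 2.99 ± 0.28 in wild type and 2.41 ± 0.24 in knockout. Col3a1 (chr1:45311538-45349706), the only chain of type III collagen, had 10.9, 9.19 and 8.04 CPM in wild type and 13.4, 10.9, 9.06 and 12.3 in knockout on chow, against 81.5, 119.6, 101 and 145 in wild type and 56, 89.2, 99.9, 95.1 and 100.3 in knockout on HFD. The first knockout liver on HFD was the lowest HFD liver for all 3 genes, and it still lay above all chow livers. The log2 fold changes of Col3a1 were 3.57 ± 0.24 (adjusted p = 2.26e-07) and 2.94 ± 0.20 (adjusted p = 1.29e-07).

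Type V collagen lies inside type I fibrils and sets their width, and its 3 chains did not move alike. Col5a2 rose by 2.86 ± 0.21 in wild type and 2.38 ± 0.18 in knockout on the log2 scale. Col5a1 rose by 1.58 ± 0.15 and 1.04 ± 0.13, from 6.72, 6.26 and 6.04 CPM in wild type on chow to 15.1, 19.7, 17.8 and 23.6 on HFD, and from 7.41, 8.36, 7.08 and 7.42 to 12.6, 16.6, 14.1, 17.9 and 16.6 in knockout. Neither gene had an overlap between diets, and for Col5a1 all knockout livers on chow were above all wild-type livers on chow. That knockout effect did not pass (adjusted p = 0.900, edgeR). Col5a3 (chr9:20770050-20815067) was instead lower on HFD, with 40.3, 27.2 and 60.2 CPM in wild type and 39.6, 43.7, 31.1 and 34.6 in knockout on chow and 31.5, 22.9, 24.4 and 29.4 in wild type and 31.1, 30.1, 23.6, 31.1 and 24 in knockout on HFD. The diets did not overlap in knockout and overlapped in wild type. Its log2 fold change of -0.65 ± 0.20 in wild type passed (adjusted p = 0.0244), and that of -0.42 ± 0.18 in knockout did not (adjusted p = 0.0860). The wild-type call rests on the third liver on chow: without it the value was -0.32 (adjusted p = 0.204), and it was also lost without the second (adjusted p = 0.0710) or the third (adjusted p = 0.0599) wild-type liver on HFD. The call was lost as well with total-count scaling (adjusted p = 0.116, edgeR) and with wild-type livers fitted alone (adjusted p = 0.0786, edgeR). Col27a1, a short fibrillar chain known from cartilage, rose by 0.45 ± 0.16 and 0.63 ± 0.14, with the call in wild type (adjusted p = 0.0440) holding in 13 of 25 fits. The call was lost in limma voom, when wild-type livers were fitted alone, and without the livers that stood apart. It was also lost without the second or the third wild-type liver on chow, or the second, the third or the fourth on HFD. Leaving out the first or second knockout liver on chow, or the fourth or the fifth on HFD, lost it too. Over all fits the adjusted p went up to 0.234. The remaining fibrillar genes, Col11a2 and Col24a1, had mean levels of at most 0.353 CPM over all libraries and did not pass.

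Col1a2, Col3a1 and the paired genes Col4a1 and Col4a2 rose in both genotypes, and the promoter sequences below show what the starts of these genes share and do not share. They are RefSeq windows (GRCm38.p6) from 250 bases before to 50 bases after the annotated start, printed 5′ to 3′ on the strand of the gene. Capitals mark, on either strand, the CCAAT box letters CCAAT, the TATA box letters TATAAA and the GC box letters GGGCGG.
Col1a2, chr6:4505368-4505667, plus strand: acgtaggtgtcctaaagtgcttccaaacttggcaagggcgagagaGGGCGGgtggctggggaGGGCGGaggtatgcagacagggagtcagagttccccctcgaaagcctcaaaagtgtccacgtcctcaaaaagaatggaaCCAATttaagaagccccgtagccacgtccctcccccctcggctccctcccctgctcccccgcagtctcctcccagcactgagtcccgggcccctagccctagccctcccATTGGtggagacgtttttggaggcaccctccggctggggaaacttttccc
Col3a1, chr1:45311288-45311587, plus strand: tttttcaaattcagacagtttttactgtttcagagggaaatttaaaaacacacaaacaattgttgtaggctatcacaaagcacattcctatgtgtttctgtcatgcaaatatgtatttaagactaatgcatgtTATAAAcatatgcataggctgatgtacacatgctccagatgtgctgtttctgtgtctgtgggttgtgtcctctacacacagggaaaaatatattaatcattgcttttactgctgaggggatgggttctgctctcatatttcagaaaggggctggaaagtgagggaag
Col4a1, chr8:11312777-11313076, minus strand: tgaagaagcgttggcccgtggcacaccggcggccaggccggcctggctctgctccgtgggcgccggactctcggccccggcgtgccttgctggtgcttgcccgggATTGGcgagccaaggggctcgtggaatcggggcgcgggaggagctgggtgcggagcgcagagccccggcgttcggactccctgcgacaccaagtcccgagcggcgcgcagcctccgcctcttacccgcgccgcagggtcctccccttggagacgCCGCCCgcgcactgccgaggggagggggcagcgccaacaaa
Col4a2, chr8:11312555-11312854, plus strand: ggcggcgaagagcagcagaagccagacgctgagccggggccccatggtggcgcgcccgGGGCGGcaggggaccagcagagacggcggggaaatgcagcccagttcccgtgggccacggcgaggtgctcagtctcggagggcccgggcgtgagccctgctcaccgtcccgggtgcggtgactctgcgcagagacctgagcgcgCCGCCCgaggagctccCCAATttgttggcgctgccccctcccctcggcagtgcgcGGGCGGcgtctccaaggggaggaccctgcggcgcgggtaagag
The Col3a1 window held TATAAA and neither of the other motifs, and 37.7% of its bases were G or C. That TATAAA lay well upstream of the annotated start, and whether it acts as a TATA box was not tested. The other 3 windows held CCAAT and GGGCGG but no TATAAA, and had 61% (Col1a2), 74% (Col4a1) and 73.7% (Col4a2) G or C, against a median of 52.7% over all windows. CCAAT and GGGCGG were not particular to genes that rose. Both were also found for Col18a1 and Col5a3, which fell in wild type, and for Col4a5 and Col16a1, which rose there. Col7a1 and Col25a1, which were not tested, had both as well. For Col1a2 the RefSeq window begins at 4505368, inside the GENCODE gene model, which starts at 4504814. Its motifs therefore depend on which start is used. The RefSeq table gave 32 windows for 30 of the 36 genes. Col1a1, Col4a3, Col5a2, Col9a3, Col12a1 and Col14a1 had no entry. CCAAT was in 10 of these 32 windows (31.2%) against 37.4% of all 32851, TATAAA in 5 (15.6%) against 13.6%, and GGGCGG in 20 (62.5%) against 35.7%. GGGCGG and its reverse complement can lie in longer runs of G and C, and these are matches of letters only.

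For the basement membrane genes, 3 of 6 rose in wild type, with a median log2 fold change of 0.93, and 2 rose in knockout, with a median of -0.04. Col4a1 (chr8:11198423-11312826) and Col4a2 (chr8:11312805-11449287) encode the α1 and α2 chains that together make the main type IV collagen of the body. They lie head to head, their gene models overlap by 22 bases, and the promoter windows printed above overlap by 78 bases. Col4a1 had 17.8, 18.1 and 12.5 CPM in wild type and 18.1, 21.3, 20.6 and 22.9 in knockout on chow, and 52.4, 68.9, 61.2 and 81 in wild type and 30.7, 52.2, 54.6, 56.2 and 54.1 in knockout on HFD. Col4a2 had 15, 13.7 and 13.4 CPM in wild type and 18.1, 17.9, 16.6 and 17.7 in knockout on chow, and 33.8, 46.3, 43.2 and 49.4 in wild type and 28.5, 37.5, 30.4, 37.3 and 41.3 in knockout on HFD. For both genes all HFD livers were above all chow livers, and on chow all 4 knockout livers were above all 3 wild-type livers. The knockout effect on chow did not pass for Col4a1 (adjusted p = 0.877, edgeR) or Col4a2 (adjusted p = 0.812, edgeR). The diet log2 fold changes were 2.03 ± 0.20 in wild type and 1.26 ± 0.17 in knockout for Col4a1, and 1.62 ± 0.14 and 0.99 ± 0.12 for Col4a2.

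The other type IV chains were scarce in these livers. Col4a5, on the X chromosome beside Col4a6, had 0.620, 0.914 and 0.755 CPM in wild type and 0.900, 1.20, 0.695 and 0.883 in knockout on chow, and 0.764, 2.32, 1.40 and 1.75 in wild type and 0.989, 0.646, 0.698, 1.25 and 1.39 in knockout on HFD. The diets overlapped in both genotypes. Its value in wild type, 1.02 ± 0.38, was at the edge of the threshold (adjusted p = 0.0492) and passed in 9 of 25 fits. It was lost when any 1 of the wild-type or knockout livers on chow, the second, the third or the fourth wild-type liver on HFD, or the first or the fourth knockout liver on HFD was left out. The lowest of these values was 0.75 (adjusted p = 0.170), without the second wild-type liver on HFD. Col4a5 also did not pass in limma voom (adjusted p = 0.118). In edgeR it did not pass without the low-count filter (adjusted p = 0.0564) or with wild-type livers fitted alone (adjusted p = 0.0768). In knockout its value was 0.08 ± 0.32. Col4a3 and Col4a4, the chains of the glomerular network, start 71 bases apart on opposite strands of chromosome 1 and did not pass in either genotype. Col4a6 did not pass either, and its reads and those of Col4a3 and Col4a4 were at most 1.68 CPM in any library.

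In the other classes, 8 of 15 tested genes rose and 1 fell in wild type (median log2 fold change 1.10), and 6 rose and 2 fell in knockout (median 1.05). Type VI collagen, which links cells to fibrils, rose in its 3 main chains. Col6a3 (chr1:90765923-90843971) had 7.32, 7.34 and 5.27 CPM in wild type and 6.35, 8.42, 5.36 and 7.32 in knockout on chow, and 21.5, 30.004, 25.4 and 34.2 in wild type and 19.1, 15.1, 18.7, 24.9 and 23.6 in knockout on HFD. Col6a1 had 7.34, 7.28 and 6.98 CPM in wild type and 8.80, 6.84, 7.93 and 7.24 in knockout on chow and 16.2, 22.6, 20.7 and 30.2 in wild type and 17.6, 15.4, 14.9, 21.6 and 17.2 in knockout on HFD. Col6a2 had 2.41, 2.53 and 1.62 CPM in wild type and 3.89, 2.46, 2.78 and 2.77 in knockout on chow and 8.42, 11.3, 10.8 and 15.4 in wild type and 7.67, 7.17, 8.20, 12.6 and 9.22 in knockout on HFD. All 3 were separated by diet in both genotypes, with log2 fold changes in wild type and knockout of 2.06 ± 0.20 and 1.55 ± 0.17 for Col6a3, 1.63 ± 0.18 and 1.17 ± 0.15 for Col6a1, and 2.39 ± 0.25 and 1.59 ± 0.21 for Col6a2. Col6a5, a chain related to Col6a3, passed in wild type at 2.84 ± 0.79 but not without the first wild-type liver on chow (adjusted p = 0.0576), and Col6a6 did not pass.

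The fibril-associated Col14a1 (chr15:55307750-55520803), whose product decorates fibrils of types I and III, had 17.5, 17.1 and 13.3 CPM in wild type and 19.6, 22.6, 17.4 and 15.1 in knockout on chow, and 36.8, 51.7, 45.1 and 69.4 in wild type and 36.7, 38.3, 41.4, 38.9 and 38.2 in knockout on HFD. The diets were separate, and the fourth wild-type liver on HFD was the highest. Its log2 fold changes were 1.66 ± 0.18 and 1.05 ± 0.15. Of its relatives, Col12a1 passed in wild type (1.10 ± 0.27) and not in knockout (0.57 ± 0.23, adjusted p = 0.0662), and Col16a1 passed in both, at 1.10 ± 0.35 and 1.59 ± 0.31. The Col16a1 call in wild type was lost without the first or the third liver on chow or the fourth on HFD, and when wild-type livers were fitted alone, with adjusted p up to 0.118. Col8a1, a short-chain collagen of vessel walls, rose from 0.470, 0.233 and 0.0592 CPM to 2.14, 3.76, 1.52 and 2.44 in wild type and from 0.435, 0.302, 0.425 and 0.486 to 0.702, 2.18, 1.58, 2.72 and 2.21 in knockout. These are low levels, and no diet overlap was seen. Its log2 fold changes were 3.19 ± 0.52 (adjusted p = 1.99e-04) and 2.19 ± 0.42 (adjusted p = 6.71e-04).

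Against this direction, Col18a1 (chr10:77052178-77166548) went down. It had 455, 467 and 519 CPM in wild type and 457, 498, 535 and 483 in knockout on chow, and 338, 358, 358 and 420.2 in wild type and 385, 367, 360.1, 358 and 361 in knockout on HFD, with no overlap between diets. The log2 fold changes were -0.38 ± 0.08 (adjusted p = 0.00227) and -0.43 ± 0.07 (adjusted p = 2.49e-04). With total-count scaling they were -0.15 (adjusted p = 0.174) and -0.23 (adjusted p = 0.0218), on a scale where the median gene had moved to 0.20 and 0.19. The hepatocyte marker list also had a negative median on HFD, at -0.79 in wild type and -0.69 in knockout, with 6 of 8 and 5 of 8 fallen; its part in the Col18a1 result was not tested. Slc19a1 overlaps Col18a1 on the opposite strand over 8826 bases, and the labels do not say whether reads were counted by strand. Slc19a1 had 2001 counts over all libraries and Col18a1 had 152553. Col15a1, the other member of this class, did not pass: its median was 3.71 CPM in wild type and 2.38 in knockout on chow and 6.44 and 6.41 on HFD. The fourth knockout liver on chow had 9.52 CPM of Col15a1, against at most 2.70 in the other 3, and without it Col15a1 passed as higher on HFD in knockout (1.52, adjusted p = 0.000327) and in wild type (adjusted p = 0.0384).

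Col13a1 (chr10:61838236-61979108), which encodes a membrane-spanning collagen found at cell junctions, was measured at low levels. Its values were 1.80, 1.28 and 1.61 CPM in wild type and 2.67, 3.21, 3.36 and 2.54 in knockout on chow, and 1.81, 1.62, 1.11 and 1.19 in wild type and 1.02, 1.98, 1.81, 1.26 and 0.689 in knockout on HFD. Knockout livers on chow were above all livers of the other groups, but the knockout effect on chow did not pass (adjusted p = 0.773, edgeR). On HFD it fell in knockout, by 1.11 ± 0.26 on the log2 scale (adjusted p = 0.00305), and in wild type its value was -0.12 ± 0.31 (adjusted p = 0.803). The difference between these diet effects was -0.98 ± 0.41 and did not pass (adjusted p = 0.704). Col8a2, Col20a1 and Col23a1 had means of at most 0.425 CPM and did not pass; Col20a1 overlaps a more abundant transcript on its own strand, so its reads are uncertain.

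**Figure D2:**
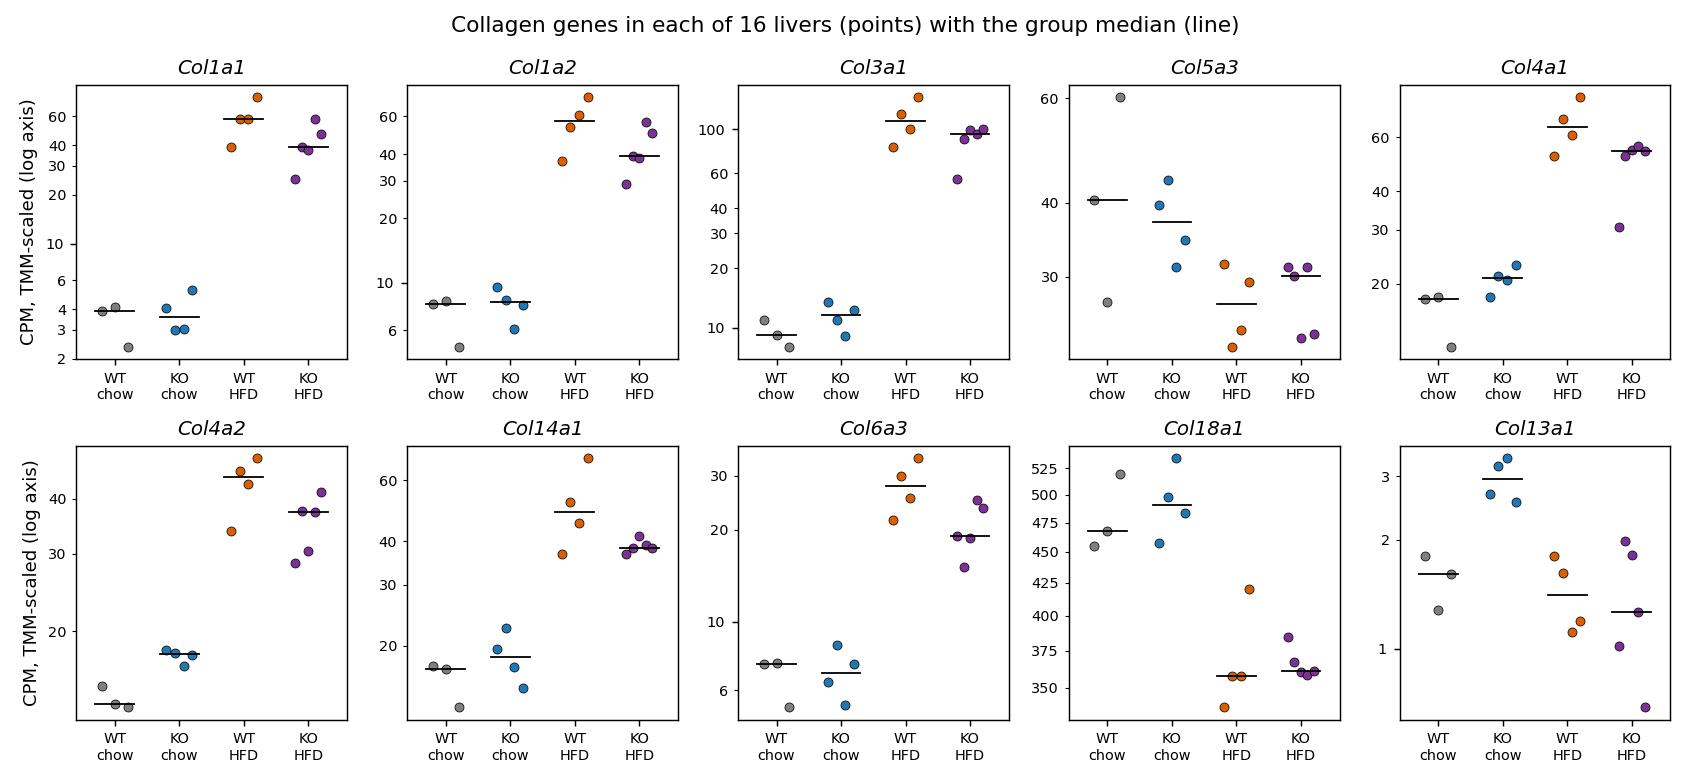
CPM on a log axis (vertical, a separate scale for each gene) of 10 collagen genes in each liver, by group (horizontal: WT is wild type, KO is knockout), with points for livers and a line for the group median. Col1a1 runs from 2.37 to 78.3 CPM, Col18a1 is lower on HFD without overlap, and Col13a1 is highest in knockout on chow. Col5a3 is lower on HFD with overlapping diets in wild type, and its change in knockout did not pass.

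Lists of cell type markers were read in the same libraries, against the 15.2% of all genes that rose and 14.2% that fell in wild type and the 17.4% and 16.2% in knockout. Of 5 myofibroblast markers 3 were tested, and 3 rose in wild type and 3 in knockout (median log2 fold changes 2.44 and 1.98), led by Tagln at 2.59 ± 0.34 and Acta2 at 2.43 ± 0.61 in wild type, which encode proteins of the contractile apparatus. Their summed level ran from 2.74 to 5.49 CPM in wild type and 4.98 to 8.59 in knockout on chow, and from 16.3 to 28.3 and 8.88 to 32.1 on HFD. The first knockout liver on HFD had the 8.88, and the other 4 had at least 18.8. Portal fibroblast markers rose in 5 of 7 in wild type and 3 of 7 in knockout (medians 1.25 and 0.94), with sums of 7.53 to 10.8 and 10.02 to 11.1 CPM on chow and 23.2 to 36.6 and 17.6 to 32.1 on HFD. Quiescent stellate cell markers rose in 7 and fell in 1 of 12 in wild type, and rose in 6 and fell in 3 in knockout (medians 0.79 and 0.29). Their sums were 258 to 307 and 275 to 378 CPM on chow and 301 to 432 and 305 to 403 on HFD, where the 403 was that same liver and the other 4 had at most 363. Lrat, which stores retinoid in stellate cells, rose by 1.09 ± 0.21, and Hhip, which binds hedgehog ligands, fell (log2 fold change -2.45 ± 0.52). Sinusoidal endothelial markers rose in 5 of 10 in wild type (median 0.36), and in knockout 0 rose and 3 fell (median -0.16). Macrophage markers rose in 5 of 8 and 3 of 8 (medians 1.57 and 0.63), cholangiocyte markers in 2 of 7 in each genotype (0.91 and 0.44) and mesothelial markers in 1 of 5 in each (1.25 and 0.18). The share of mesothelial markers that rose was near that of all genes. Macrophage sums in knockout on HFD were 123 to 152 CPM in 4 livers and 256 in the first. No marker of these lists that had a row was at 0 in every library. The part of any of these cell types in the collagen values was not tested.

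Summed per kilobase, the fibrillar class rose from a median of 11.3 CPM per kilobase in wild type and 10.7 in knockout on chow to 33.7 and 27.5 on HFD, and no HFD liver overlapped a chow liver (chow 8.27 to 12.9, HFD 21.0 to 43.4). The first knockout liver had the 21.0 and the fourth wild-type liver the 43.4. Basement membrane genes went from 4.89 and 5.80 to 16.03 and 12.9, again without overlap. The remaining classes, dominated by Col18a1, had medians of 73.2 and 77.4 on chow and 69.6 and 66.3 on HFD, and without Col18a1 they had 6.64 and 7.50 on chow and 18.6 and 14.5 on HFD. The fibrillar share of all collagen was 12.9% and 11.5% on chow and 28.2% and 26.1% on HFD, as medians, and the basement membrane share was 5.62% and 6.19% on chow and 12.9% and 11.8% on HFD. The direction of the basement membrane share depends on its members. With Col15a1 and Col18a1 counted in, it was lower on HFD, at 81.3% and 81.5% on chow and 57.3% and 61.25% on HFD. These sums are descriptions over the members and carry no test. With Col18a1 left out, a choice made after seeing the data, the fibrillar share was 49.0% and 44.5% on chow and 49.8% and 50.8% on HFD. On chow the fibrillar sum lay largely in Col5a3, whose mean was 6.25 of a class mean of 10.8 CPM per kilobase in wild type. In knockout on chow it was 5.47 of 10.4. On HFD Col5a3 had 3.97 of 34.2 in wild type and 4.11 of 27.7 in knockout. The share without Col5a3 was not computed.

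**Figure D3:**
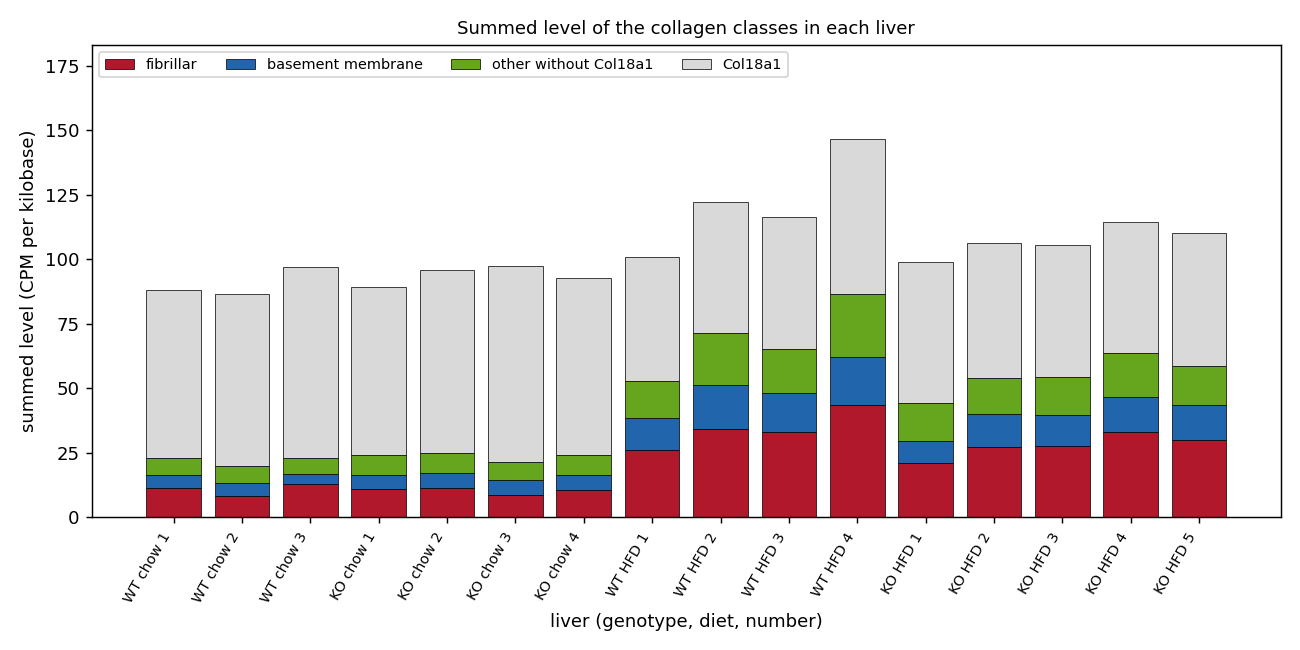
Summed level in CPM per kilobase (vertical axis, from 0) in each of the 16 livers (horizontal axis), stacked by class, with Col18a1 drawn apart in grey. The fibrillar part is 8.27 to 12.9 in chow livers and 21.0 to 43.4 in HFD livers, while Col18a1 holds the largest part of every bar.

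Chains that share a triple helix did not all keep their ratio. Type I collagen is built mostly with more α1 than α2 chains. The ratio of Col1a1 to Col1a2 counts was 0.491 (median; 0.471 to 0.505) in wild type and 0.463 (0.362 to 0.666) in knockout on chow, and 1.05 (0.955 to 1.07) and 0.980 (0.859 to 1.01) on HFD, the 0.859 being the first knockout liver. No chow liver reached the lowest HFD liver. Divided by exon length the medians were 0.929, 0.877, 2.0 and 1.85 in the same order. The annotated exons of Col1a2 are longer than its messenger RNA, so the level of this ratio depends on the length used. By exons Col1a1 is the shorter gene (6563 against 12426 bases), and by longest coding transcript it is the longer (5930 against 5348). Division by the latter would lower the ratio of counts and was not computed. The values therefore do not give the proportion of chains. Col5a1 to Col5a2 went the other way, from 4.52 and 4.64 on chow to 1.86 and 1.94 on HFD. Col6a1 to Col6a2 went from 3.04 and 2.70 to 1.94 and 1.86, and its knockout livers overlapped between diets (2.26 to 2.85 against 1.71 to 2.29). For Col4a1 to Col4a2 the medians were 1.18 and 1.21 on chow and 1.52 and 1.39 on HFD, and the knockout livers overlapped between diets (1.00 to 1.30 against 1.08 to 1.80). Col3a1 and Col1a1 belong to different collagen types and do not share a helix. Their ratio had medians of 2.80 and 3.13 on chow and 1.97 and 2.25 on HFD, and the knockout livers overlapped between diets (2.33 to 3.62 against 1.66 to 2.67). These ratios were not tested.

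**Figure D4:**
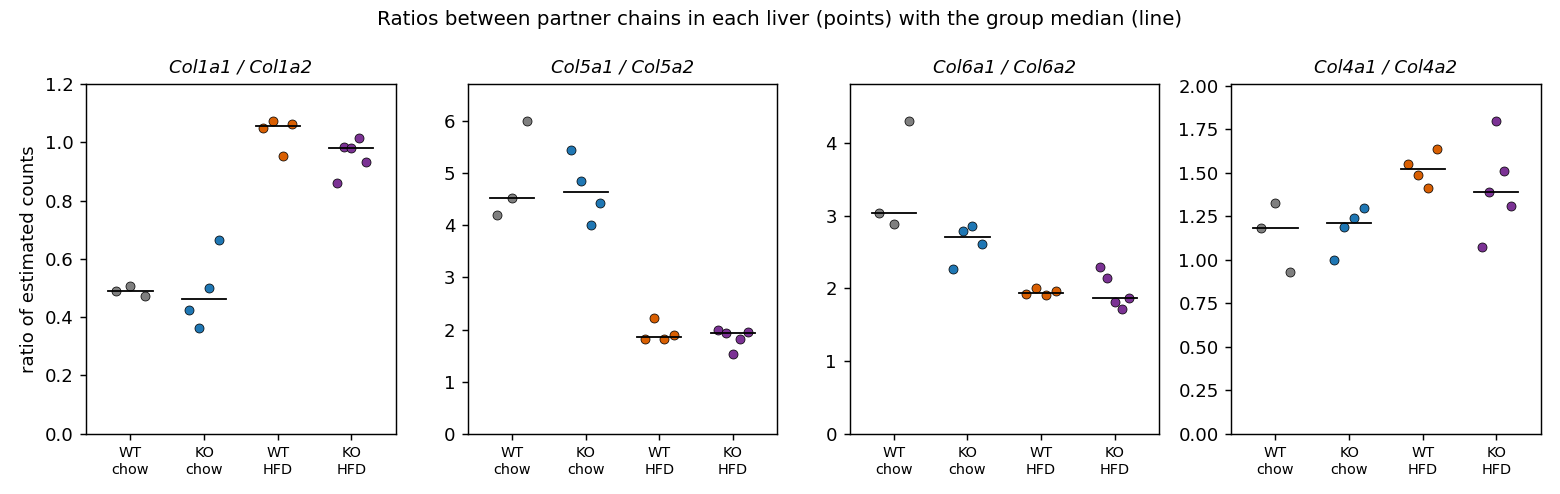
Ratio of estimated counts (vertical axis, from 0) between partner chains in each liver, by group (horizontal axis: WT is wild type, KO is knockout), with a line at the group median. Col1a1 to Col1a2 is higher on HFD (medians 1.05 and 0.980 against 0.491 and 0.463), and Col5a1 to Col5a2 is lower (1.86 and 1.94 against 4.52 and 4.64).

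For the effect of the miR-33 knockout itself, no collagen gene passed on either diet. On chow, 0 of 30 passed in edgeR's test and 2 had an unadjusted p under 0.05, against 0.00594% and 5.95% of all genes. DESeq2's Wald test and limma voom also called 0, with 2 and 1 at an unadjusted p under 0.05. The values were above 0 in 22 and below 0 in 8, with a median of 0.21, against 8429 above and 8397 below among all genes. On HFD, 0 of 30 passed and 8 had an unadjusted p under 0.05, against 0.00594% and 3.81% of all genes, and DESeq2 and limma voom called 0, with 9 and 8 at an unadjusted p under 0.05. Here 5 values were above 0 and 25 below, with a median of -0.29, against 8599 above and 8231 below among all genes. For the difference of the knockout effects between diets, 0 of 30 passed by any of these tools, and 8 (edgeR), 8 (DESeq2) and 6 (limma voom) had an unadjusted p under 0.05, against 0% and 6.60% of all genes by edgeR. Of these differences 5 were above 0 and 25 below, with a median of -0.54, against 8540 above and 8290 below among all genes. All 3 comparisons share livers, and the genes share cell sources, so these signs are not independent of each other.

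**Figure D5:**
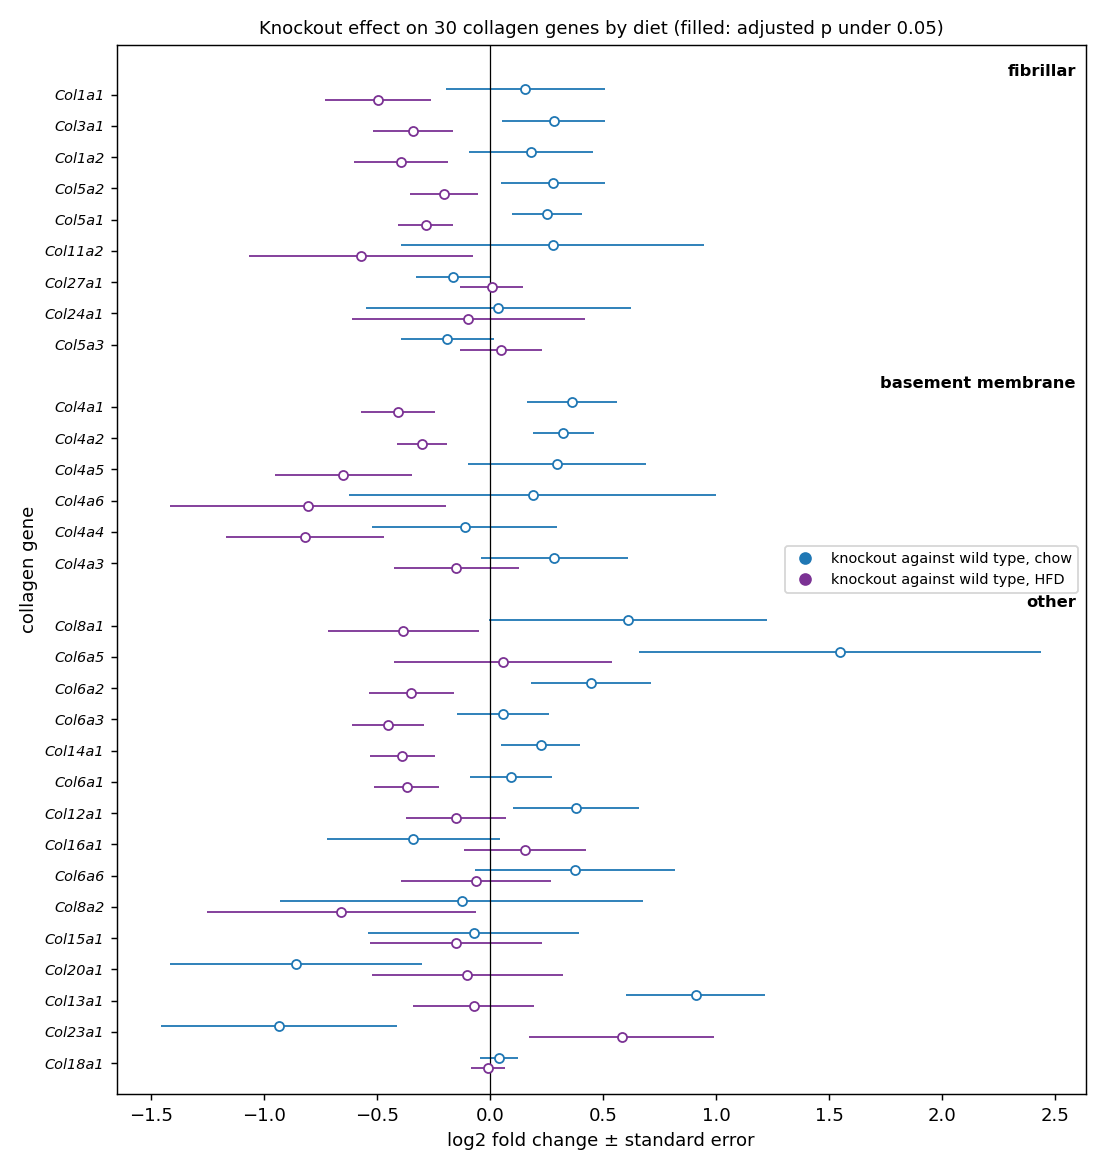
Log2 fold change of knockout against wild type (horizontal axis) for the 30 tested collagen genes (vertical axis), on chow (blue) and HFD (purple), with bars of 1 standard error. No point is filled, since none had an adjusted p under 0.05; 22 lie above 0 on chow and 25 below 0 on HFD.

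On chow the smallest p was that of Col13a1, with a log2 fold change of 0.91 ± 0.31 (adjusted p = 0.773, edgeR). Next came Col4a2 at 0.32 ± 0.14 (adjusted p = 0.812) and Col4a1 at 0.36 ± 0.20 (adjusted p = 0.877). In each of these genes all 4 knockout livers were above all 3 wild-type livers, and in wild type the third liver was the lowest for Col4a1 and Col4a2. The genes were chosen by their p in this comparison, so the separation adds no separate evidence. The share of all genes separated in this way was not computed. On HFD the smallest p were those of Col6a3 at -0.45 ± 0.16, Col4a2 at -0.30 ± 0.11 and Col14a1 at -0.39 ± 0.14, each with an adjusted p of 1.00 and with genotypes that overlapped. For the difference, Col4a2 had -0.62 ± 0.18 (adjusted p = 0.646), Col4a1 -0.77 ± 0.26 (adjusted p = 0.664) and Col5a1 -0.54 ± 0.20 (adjusted p = 0.691). Among the 14 genes that rose on HFD in both genotypes, the diet log2 fold change was smaller in knockout for 12, which is a description and not a test. The matching share over all genes that rose in both genotypes was not computed.

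The extremes on HFD often fell in 2 livers. Of the 14 genes that rose in both genotypes, the fourth wild-type liver was the highest of all 9 HFD livers in 12, and the first knockout liver was the lowest in 9. Without the fourth wild-type liver the collagen median for knockout against wild type on HFD was -0.18 and 1 gene had an unadjusted p under 0.05, in place of -0.29 and 8. Without the second it was -0.25 with 4, without the first -0.39 with 12, and without the first knockout liver -0.22 with 6. On chow the third wild-type liver was the lowest in 12 of the 14, and without it the chow median was 0.15 in place of 0.21. The ribosomal RNA gene took 2.54% of that library, against 11.3% and 13.3% in the other wild-type livers on chow. It took 1.36% of the fourth wild-type liver on HFD, which had the fewest counts of the HFD libraries (16149911), against 5.40% to 10.3% in the other 3. In the knockout livers on HFD it took 12.3% of the first, and 3.56%, 1.13%, 11.9% and 0.637% of the second to the fifth. Low and high shares were thus also found in knockout livers that were seldom the extreme. The part of the ribosomal RNA share in these results was not tested.

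Several marker lists had the same signs as the collagen genes, and none of their genes passed. Of the sinusoidal endothelial markers, 10 of 10 were above 0 on chow (median 0.33) and 8 of 10 below 0 on HFD (median -0.39). Their sums were 194 to 240 and 257 to 305 CPM in wild type and knockout on chow and 233 to 310 and 199 to 270 on HFD, where the 270 was the first knockout liver and the other 4 had at most 210.0. Macrophage markers had 8 of 8 above 0 on chow (0.41) and 6 of 8 below on HFD (-0.18). Quiescent stellate markers had 10 of 12 above 0 on chow (0.15) and 10 of 12 below on HFD (-0.15), and portal fibroblast markers 6 of 7 above (0.24) and 7 of 7 below (-0.36). Mesothelial markers had 5 of 5 above 0 on chow (0.74) and 3 of 5 below on HFD (-0.04), and myofibroblast markers were above 0 in 3 of 3 on chow (0.52) and 2 of 3 on HFD (0.06). Cholangiocyte markers were below 0 in 5 of 7 on chow (-0.19) and 7 of 7 on HFD (-0.66). Hepatocyte markers were above 0 in 4 of 8 on chow (0.00) and 6 of 8 on HFD (0.06). Their part in the collagen values was not tested.

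The knockout removes a microRNA, so the collagen messages were searched for its sites. The mature mouse miR-33-5p, from RefSeq (chr15:82198127-82198147, plus strand, inside the host gene Srebf2), is shown with its seed, bases 2 to 8, in capitals, since pairing to the seed is what defines a site.
mmu-miR-33-5p: gUGCAUUGuaguugcauugca
A site was CAATGCA (pairing to bases 2 to 8) or AATGCAA (bases 2 to 7 followed by A) in the longest annotated 3′ untranslated region of a gene. Such a site was found in 2 of 36 collagen genes (5.56%) and in 3139 of 20935 genes (15.0%). The stretches around them are printed with the site in capitals.
Col3a1, chr1:45349482-45349488, plus strand: attcaagccataAATGCAAagtatctatat
Col12a1, chr9:79600129-79600136, minus strand: ttggaacaccgCAATGCAAtgcatctattt
Col12a1, chr9:79600125-79600131, minus strand, overlapping the site before: acaccgcaatgCAATGCAtctatttatggt
For Col3a1 the knockout log2 fold change was 0.28 ± 0.23 on chow and -0.34 ± 0.18 on HFD, and for Col12a1 it was 0.38 ± 0.28 and -0.15 ± 0.22. Neither passed on either diet, and both lay inside the range of the 28 tested collagen genes without a site (-0.94 to 1.55 on chow, -0.82 to 0.58 on HFD). The ends of the chow range were scarce genes, Col23a1 and Col6a5, with means of 0.479 and 0.0935 CPM in wild type on chow. Whole-liver RNA also does not separate hepatocytes, where Alb-Cre acts, from the main makers of fibrillar collagen. The comparison therefore cannot decide whether the sites act, which was not tested.

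Genes that handle collagen chains after translation were also read out, from lists chosen with earlier results of these data known. The shares of all genes that rose and fell were 15.2% and 14.2% in wild type and 17.4% and 16.2% in knockout. Of the 18 tested genes of chain modification and folding, 6 rose and 2 fell in each genotype (median log2 fold change 0.14 in wild type and 0.32 in knockout). The largest changes in wild type were those of Serpinh1, the collagen chaperone HSP47, at 2.38 ± 0.30, Plod2, a lysyl hydroxylase, at 2.10 ± 0.55, Fkbp10, a prolyl isomerase, at 2.01 ± 0.39, and P3h3 of the prolyl 3-hydroxylase family at 1.32 ± 0.28. Of 5 genes of procollagen processing, 2 rose and 1 fell in each genotype: Pcolce (1.88 ± 0.28) and Adamts2 (1.62 ± 0.20), which act on the ends of procollagen, rose, and Bmp1, a C-proteinase, fell (-0.92 ± 0.09), the values being those in wild type. The lysyl oxidases, which cross-link fibrils, rose in 4 of 5 in wild type and 3 of 5 in knockout (medians 1.81 and 1.63). Lox had 3.45 ± 0.60, Loxl2 2.48 ± 0.23, Loxl1 1.81 ± 0.36 and Loxl3 1.21 ± 0.38 in wild type.

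Among partners of fibrils, 9 of 11 rose and 1 fell in wild type and 7 rose and 1 fell in knockout (medians 1.26 and 0.57). Tnc had 3.72 ± 0.63, Postn 2.08 ± 0.23, Sparc 1.89 ± 0.17 and Lum 1.88 ± 0.28; these are tenascin C, periostin, osteonectin and lumican. Laminins, nidogens and other basement membrane partners rose in 5 of 11 and 4 of 11 (medians 0.54 and 0.31), with Nid1 at 2.34 ± 0.30, Lama2 at 1.97 ± 0.34, Lamb1 at 0.97 ± 0.17 and Lama4 at 0.86 ± 0.20. Collagen receptors rose in 6 of 9 in wild type, and in knockout 3 rose and 1 fell (medians 1.10 and 0.41). Itga11 had 2.59 ± 0.88, Mrc2 1.69 ± 0.29, Ddr1 1.38 ± 0.35 and Lair1 1.34 ± 0.36. Of collagen breakdown genes 7 of 9 rose in each genotype (medians 1.93 and 1.04). Mmp8, a collagenase, was at 0 in all 3 wild-type livers on chow and at 0.460 ± 0.157 CPM (SD, n = 4) in wild type on HFD, at least 2.80-fold higher when 3 counts are set in each chow library, which covers counting error only, and with Mmp8 at that bound the list's median in wild type was 1.48. Mmp13, another collagenase, had 4.56 ± 0.62, Timp1, an inhibitor of these enzymes, 4.02 ± 0.52, and the protease gene Ctsk 2.10 ± 0.29.

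In knockout against wild type on HFD, none of the genes on these lists passed (edgeR, adjusted p of 1.00 for those named here), and none passed on chow. The smallest p of each list belonged to Crtap at -0.48 ± 0.19, Bmp1 at -0.15 ± 0.08, Lox at -0.64 ± 0.36, Lum at -0.44 ± 0.22, Lama4 at -0.38 ± 0.17, Ddr2 at -0.41 ± 0.15 and Ctsk at -0.61 ± 0.21. All 9 receptors, all 9 breakdown genes, all 5 lysyl oxidases and all 5 processing genes had values below 0 there, as did 10 of 11 fibril partners and 9 of 11 basement membrane partners, against 10 of 18 above 0 for chain modification and folding. The direction was shared with the collagen genes in the same 9 livers, so it adds no separate evidence.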

How the data were processed

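Liver RNA of 16 mice was measured by RNA sequencing. The deposited table holds estimated counts per gene; the name of the table speaks of FPKM, but the values are not scaled to length or depth. TopHat2, Cuffdiff and mm10 are named, per the submitters' processing notes; no versions are named there. Counts were rounded and tested with edgeR 4.0.16 (R 4.3.3; TMM, low-count filter, robust quasi-likelihood fit of 4 groups, 12 residual degrees of freedom, Benjamini-Hochberg over 16830 genes, threshold 0.05). limma 3.58.1 (voom) and DESeq2 1.42.0 were alternatives, with other scalings, no filter and leaving out libraries. The fit was tested on simulated data. Levels are CPM or CPM per kilobase (1000 bases) of GENCODE M21 exons. The smallest library had 15888436 counts; 3 counts stand for a count of 0. The members and lists were chosen with earlier results of these data known. Genes were named by class, by size of change and by smallest p. GEO's labels set the groups, and no column was left out.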

Additional observations from a re-analysis of the deposited data

Results flagged for a closer look

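In 5 of 102 sets of values checked (the 30 tested genes, the summed levels of 3 classes and the ratio of Col1a1 to Col1a2, each in the 3 groups of 4 or 5 livers), 1 liver lay farther from its neighbour than Dixon's 95% limit allows; chance flags about 1 in 20 such groups. In knockout on HFD, the first liver was low for Col4a1 (30.7 CPM, next 52.2) and Col3a1 (56.0 CPM, next 89.2) and high for Col23a1 (1.03 CPM, next 0.544), and the fifth was low for Col4a3 (0.554 CPM, next 0.889). In knockout on chow, the fourth liver was high for Col15a1 (9.52 CPM, next 2.70). The cause was not tested.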

How the results depend on the processing

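Of the 30 tested collagen genes, 19 passed for diet in wild type and 16 in knockout. Across the alternatives these counts were 15 to 19 and 16 to 19, and the knockout comparisons and their difference had 0 in each. Leaving out 1 liver gave 16 to 19 in wild type. No gene reversed its direction where it had passed. Medians of class shares moved most with the treatment of length and of Col18a1. In the order wild type on chow, knockout on chow, wild type on HFD, knockout on HFD, the fibrillar share was 14.9%, 13.6%, 33.7% and 31.6% when CPM were not divided by length. The basement membrane share in wild type on HFD was then 12.1%. With Col15a1 and Col18a1 counted as basement membrane, that share was 81.3%, 81.5%, 57.3% and 61.25%, so its direction between diets was reversed. The next alternatives were chosen after seeing the data. Without Col18a1 the fibrillar share was 49.0%, 44.5%, 49.8% and 50.8%, and the basement membrane share 21.45%, 24.8%, 23.3% and 22.5%. With the length of the longest coding transcript the fibrillar share on HFD was 33.4% in wild type and 31.01% in knockout, and the basement membrane share was 5.35% in knockout on chow, 10.8% in wild type and 9.85% in knockout on HFD. The cause of call changes was not tested. In knockout, Col12a1, Col5a3, Col6a5 and Col23a1 did not pass but did so in 5, 4, 4 and 4 of the fits, and Col11a2 passed in wild type without the third liver on chow. No paired analysis was possible because the labels give no replicate numbers shared between groups. Depth limits the genes under about 1 CPM.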
